A study of Mus musculus with 22 samples.

Results

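The nuclear-encoded genes of the mitochondrial respiratory chain were followed in white adipose tissue (WAT) and striatum of mice given thyroid hormone (TH). Members were the gene symbols starting with Nduf, Uqcr, Cox4 to Cox8 or Atp5 together with Sdha to Sdhd, without Cox7a1, Cox8b and symbols with -ps, that had a mean normalised count above 10 in their tissue. Annotated pseudogenes without -ps in the symbol were not removed. Ndufa11b, annotated as a processed pseudogene, was therefore counted among the complex I subunits of striatum. In WAT 88 of 90 such rows passed, out of 17928 genes tested, and in striatum 92 of 95, out of 15827. They were 78 subunits and 10 assembly factors in WAT and 82 subunits and 10 assembly factors in striatum. The rows outside were Cox8c (mean 0.329) and Cox7b2 (0) in WAT and Cox7b2 (4.54), Cox8c (0) and Ndufb4c (0) in striatum, and the lowest members inside were Cox6b2 (28) and Cox4i2 (83.8) in WAT and Cox4i2 (13.3) and Cox6b2 (19.9) in striatum.

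The animals were male wild-type C57BL/6J mice 8 weeks of age. Controls in both tissues were hypothyroid after 2 weeks of propylthiouracil (PTU), a drug that blocks hormone synthesis in the thyroid. WAT had 4 libraries of PTU controls, 4 libraries 6 h after TH and 4 libraries 24 h after TH. Striatum had 2 libraries of PTU controls, 4 libraries 12 h after TH and 4 libraries 24 h after TH. The labels of the TH libraries name only the hormone and the time, the study's overview lists PTU in food for WAT and none for striatum, and the fat depot was not given in the sources used here. Nothing states that libraries of a group came from separate animals, so p-values measure the spread between these libraries, which may be technical. The early times differ between the tissues (6 h and 12 h), and only 24 h can be matched. In bulk tissue, fewer cells of a type and less RNA per cell cannot be told apart.

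The respiratory chain passes electrons from NADH (complex I) and succinate (complex II) through complex III and cytochrome c to oxygen at complex IV. Complexes I, III and IV pump protons across the inner mitochondrial membrane, and complex V, the ATP synthase, uses the returning protons to make ATP. Most subunits are encoded in the nucleus and the remainder in mitochondrial DNA, while assembly factors help to build a complex without staying in it. Thyroid hormone is a long-known regulator of mitochondrial respiration, and in brown and beige fat Ucp1 lets protons return without ATP synthesis.

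WAT libraries held 17298747 to 26963433 counts and striatal libraries 8056443 to 10163849. Summed members took 1.24 to 1.45% of the counts in PTU WAT, 1.21 to 1.41% at 6 h and 1.5 to 1.66% at 24 h, and 0.733 to 0.796% in striatum. Differences between the libraries touch the values below. In WAT, 15 skeletal muscle genes varied between libraries of every group, with summed normalised counts of 4770 to 669263 in PTU, 2088 to 122555 at 6 h and 50492 to 363306 at 24 h, so the mean log2 level of these genes (muscle score) was added as a covariate. In striatum, Xist was at 22070 to 33693 normalised counts in PTU replicate 6, TH 12 h replicate 1 and all 4 libraries of TH 24 h and at most at 17.8 in the others, although every label says male, and TH 24 h replicate 2 had striatal projection neuron markers summing to 2858 against up to 57673 elsewhere, with cortical neuron markers at 25084.

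Per kilobase of exon, mean normalised counts in WAT had a median of 1345 over complex I subunits, 2228 for complex II, 3824 for complex III, 2916 for complex IV and 2077 for complex V, and 160 over the complex I assembly factors. The length was the union of all annotated exons of a gene, which can be longer than a single transcript. Ndufb2 (5.63 kb, 142 per kilobase) and Atp5g1 (4.91 kb, 134) were the lowest subunits of complexes I and V. How far this choice of length sets the order of the complexes was not tested. The highest member was Cox8a, a small subunit of cytochrome c oxidase, at 12024 per kilobase, and the lowest was Cox6b2, a testis isoform of a complex IV subunit, at 25.3. Striatal medians on the same scale were 282, 323, 604, 999 and 298 for complexes I to V, with Cox6a1 highest at 6877. The levels of the tissues come from tables scaled separately and were not compared. The tables also appear to treat reads with several equal positions differently, which may touch the levels of single members.

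At 6 h after TH in WAT, 3 members passed the test, and none of these is a core catalytic subunit. Ndufaf4 and Atp5sl, assembly factors of complex I, rose, and Ndufa4l2, a hypoxia-induced paralogue of the complex IV subunit Ndufa4, fell. Members called higher were 2.27% (2 of 88) against 4.18% of all genes, and members called lower were 1.14% (1 of 88) against 3.05%. The subunits were not tested as a set, and most lay slightly below the controls. The median difference over 78 subunits was −0.13 on the log2 scale, with 5 above 0, beside −0.03 over all genes tested. Without PTU replicate 3 it was −0.23 and without PTU replicate 4 it was −0.04.

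Ndufaf4 stood at 516, 382, 363 and 459 normalised counts in PTU, at 669, 776, 802 and 957 at 6 h and at 888, 902, 1072 and 920 at 24 h. Every TH library was above every control, and the 24 h libraries overlapped those of 6 h (0.24 log2 between the times, adjusted p = 0.295). The difference from PTU was 0.90 ± 0.13 log2 (SE, n = 4 and 4, edgeR quasi-likelihood test, adjusted p = 0.00184). Atp5sl stood at 299, 254, 342 and 336 in PTU and at 436, 421, 401 and 489 at 6 h, without overlap, a difference of 0.51 ± 0.11 log2 (edgeR, adjusted p = 0.0164).

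Ndufa4l2 stood at 150, 233, 179 and 165 in PTU, 114, 60.3, 80.3 and 92.8 at 6 h and 102, 66.9, 88.1 and 110 at 24 h. Every TH library was below every control, by −1.07 ± 0.22 log2 at 6 h (edgeR, adjusted p = 0.0117). Ndufa4l2 (GRCm38, chr10:127514967-127517154, + strand) overlaps Shmt2 on the opposite strand, and the strand setting of the counting is not stated, so reads of the pair cannot be told apart. Ndufa4 itself differed by −0.30 log2 at 6 h (adjusted p = 0.185). With the muscle score in the fit all 3 calls stayed, in a background of 3.54% of genes higher and 3.16% lower, and the median over subunits was −0.06. Groups did not overlap for 4 of 88 members (4.55%) against 13.9% of all genes.

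At 24 h after TH in WAT, 12 members rose and 2 fell, spread over all complexes except the subunits of complex V. Members called higher were 13.6% (12 of 88) against 7.45% of all genes, and members called lower 2.27% (2 of 88) against 9.62%. Among subunits the median difference was 0.18 log2 with 56 of 78 above 0, beside a median of −0.00 over all genes. Without PTU replicate 3 the subunit median was 0.10, that of complex I 0.10, and those of complexes IV and V −0.08 and −0.02. Groups did not overlap for 25% of members (22 of 88) against 19.3% of all genes.

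**Figure D1:**
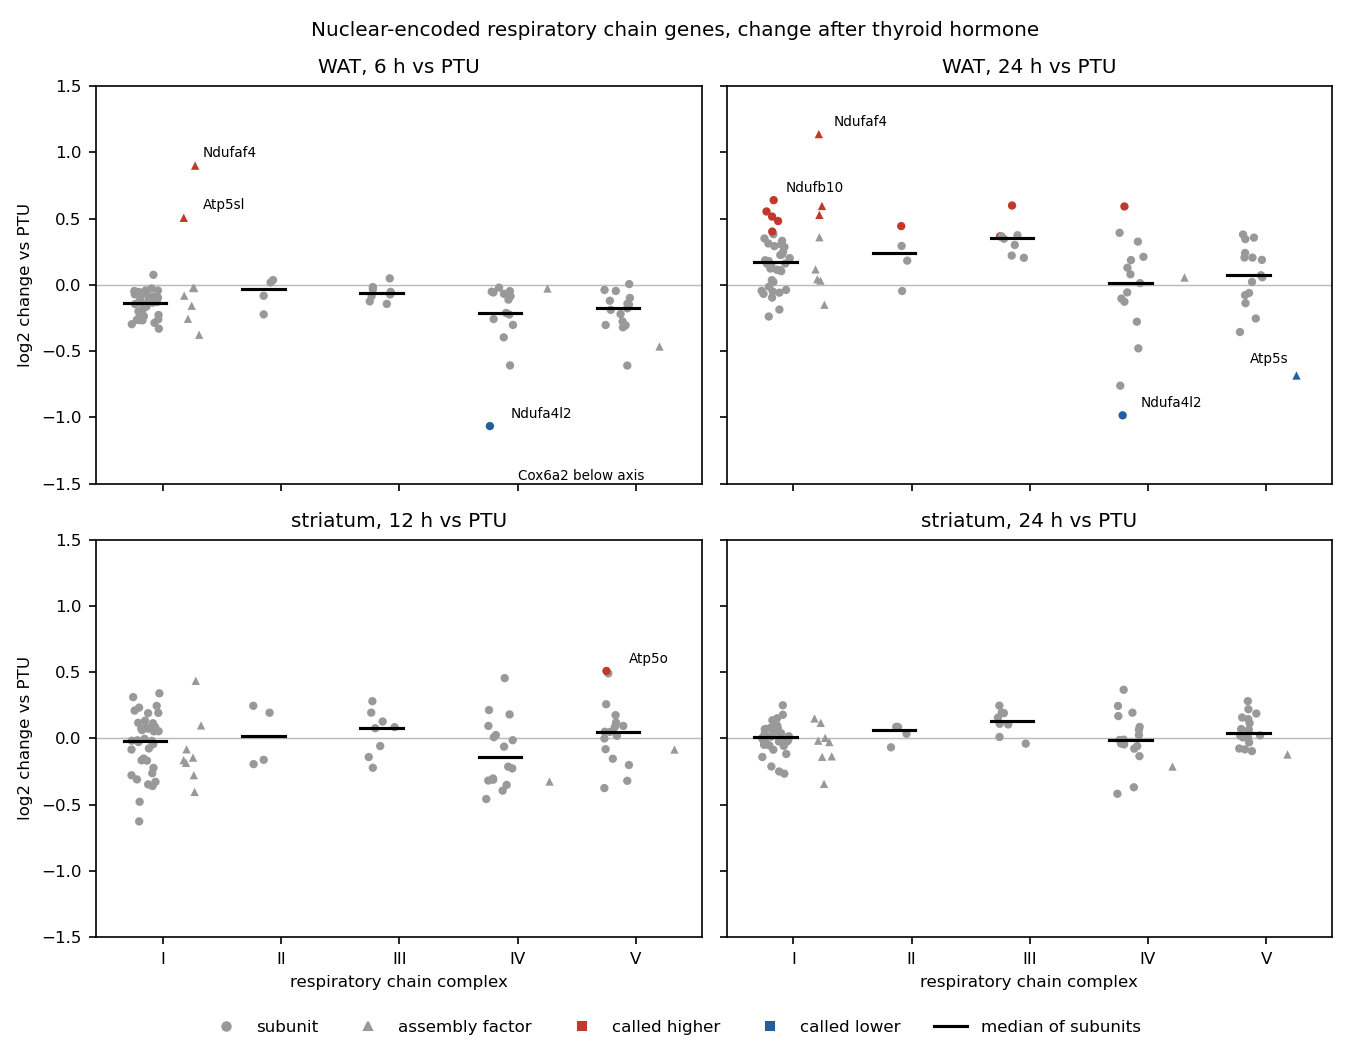
Log2 difference from PTU of each member by complex, for WAT at 6 h and 24 h and striatum at 12 h and 24 h, with called members marked and subunit medians as bars (Cox6a2 at 6 h, −3.31, lies below the axis). Complex III subunits in WAT at 24 h all lie above 0 with a median of 0.36, while complex IV lies around 0.01 and striatal medians at 24 h lie between −0.01 and 0.13.

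Of the 5 complexes, complex III had the highest median. Its 8 subunits all lay above 0, from 0.20 to 0.60 log2 (median 0.36), and their summed normalised counts were 24971 to 32603 in PTU, 24765 to 32483 at 6 h and 33958 to 42453 at 24 h, so that the 24 h libraries lay apart from both. Uqcrc1, a core protein of the complex, stood at 4671, 3855, 3763 and 3684 in PTU, 3824, 3659, 4580 and 4451 at 6 h and 5383, 6287, 7051 and 5457 at 24 h. It rose by 0.60 ± 0.12 log2 (edgeR, adjusted p = 0.00629), and the other core protein, Uqcrc2, rose by 0.37 ± 0.12 (adjusted p = 0.0473). Uqcrfs1, the Rieske iron-sulfur protein, differed by 0.22 without passing (adjusted p = 0.249).

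Complex I had a median of 0.17 log2 over 36 subunits, with 27 above 0 and 5 called higher. Ndufb10, a membrane-arm subunit, stood at 3615, 3114, 2519 and 3149 in PTU, 2704, 2760, 3992 and 3606 at 6 h and 4452, 4819, 5260 and 4768 at 24 h, a rise of 0.64 ± 0.14 log2 at 24 h (edgeR, adjusted p = 0.0101). Ndufs8, which carries iron-sulfur clusters of the electron path, rose by 0.48 ± 0.11 (adjusted p = 0.0116) and Ndufs4, an accessory subunit needed for a stable complex, by 0.51 ± 0.13 (adjusted p = 0.0176). The accessory subunits Ndufa12 and Ndufa8 rose by 0.55 ± 0.16 and 0.40 ± 0.11 (adjusted p = 0.0353 and 0.0296). Core subunits were not among the calls apart from Ndufs8: Ndufs1, the largest subunit, differed by 0.25, Ndufs7 by 0.29 and the NADH-binding Ndufv1 by 0.16 log2 (adjusted p = 0.195, 0.180 and 0.438).

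Among the 8 assembly factors of complex I, 3 rose. Ndufaf4 rose by 1.14 ± 0.13 log2 or 2.2-fold (edgeR, adjusted p = 0.000176), Atp5sl by 0.59 ± 0.11 (adjusted p = 0.00324; 449, 441, 512 and 458 counts at 24 h) and Ndufaf6 by 0.53 ± 0.16 (adjusted p = 0.0394). The other 5 lay between −0.15 and 0.36 log2 and did not pass.

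Complex II was measured by 4 genes. Sdhd, a membrane anchor, stood at 2474, 2575, 2231 and 2424 in PTU, 2279, 2147, 2637 and 2758 at 6 h and 2961, 3171, 3895 and 3161 at 24 h, and rose by 0.44 ± 0.11 log2 at 24 h (edgeR, adjusted p = 0.0163). The catalytic flavoprotein Sdha, the iron-sulfur protein Sdhb and the other anchor Sdhc differed by 0.18, 0.29 and −0.05 (adjusted p = 0.349, 0.127 and 0.812).

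Complex IV was divided. Cox5a, a nuclear subunit on the matrix side, stood at 2693, 3364, 2574 and 4000 in PTU, 2800, 2459, 3283 and 3358 at 6 h and 4130, 4804, 5253 and 4834 at 24 h, and rose by 0.59 ± 0.15 log2 (edgeR, adjusted p = 0.0188), whereas Ndufa4l2 was lower by −0.99 ± 0.22 (adjusted p = 0.0087). The median over 15 subunits, which leave out Cox7a1 and Cox8b, was 0.01, with 8 above 0. Cox4i1, the ubiquitous form of subunit 4, differed by 0.08 log2 and Cox4i2, its lung and hypoxia form, by −0.48 (adjusted p = 0.691 and 0.161). Of the subunit 6a pair, the ubiquitous Cox6a1 differed by 0.19 (adjusted p = 0.374), and the heart and muscle isoform Cox6a2 ran from 19.2 to 2550 counts within PTU alone. Cox7a2 and Cox7a2l, a subunit and its relative that helps to join complexes III and IV, differed by 0.01 and 0.06 (adjusted p = 0.957 and 0.688).

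In complex V no subunit passed, with a median of 0.07 log2 over 15 and 10 above 0. The catalytic Atp5a1 and Atp5b differed by 0.34 and 0.19 (adjusted p = 0.0733 and 0.294), Atp5f1 of the stator by 0.38 (adjusted p = 0.0615) and Atp5g3, 1 of 3 genes for the c-ring protein, by −0.36 (adjusted p = 0.0627), with every 24 h library below every control. The other c-ring genes Atp5g1 and Atp5g2 differed by −0.14 and 0.07 (adjusted p = 0.750 and 0.713). Atp5s, coupling factor B, stood at 158, 212, 163 and 239 counts in PTU, 142, 132, 160 and 127 at 6 h and 112, 106, 148 and 115 at 24 h, and fell by 0.68 on the log2 scale at 24 h (SE 0.16, edgeR, adjusted p = 0.0127).

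**Figure D2:**
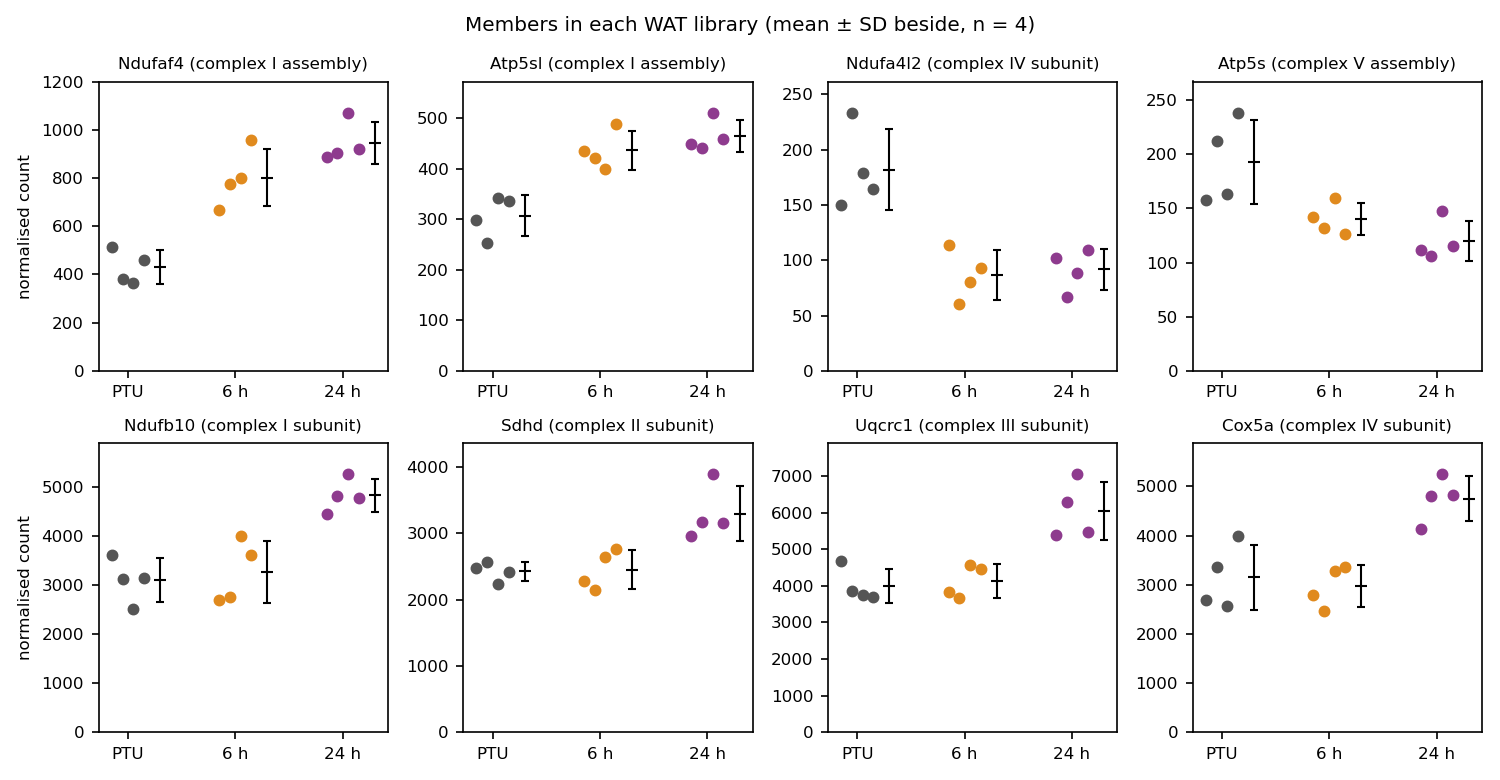
Normalised counts of members called in WAT, by library, with group means. Ndufaf4 is between 363 and 516 in PTU and between 888 and 1072 at 24 h, while Ndufa4l2 and Atp5s lie lower at 24 h than in any control.

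Promoter sequence was looked at for the members that rose at 24 h, since nuclear respiratory genes are known for binding sites of NRF1, ETS family factors (GABP) and oestrogen-related receptors (ERR). RefSeq promoters, 250 bases before to 50 after each gene's RefSeq start, were matched for 74 of 93 members. Both strands were searched for GCGCA, any base and GCGC (NRF1), CCGGAAG (ETS/GABP), TCAAGGTCA (ERR) and AGGTCA, any 4 bases and AGGTCA (DR4, a thyroid hormone receptor arrangement). The NRF1 letters were in 18 member promoters (24.3%) against 4.6% of 32851 promoters and 9.63% of 11451 WAT genes tested, the ETS letters in 17 (23%) against 8.86% and 17%, the ERR letters in 2 (2.7%) against 0.423% and 0.271%, and the DR4 letters in 0 against 0.0152% and 0%. These shares rest on unlike choices of promoter. Members had the promoter nearest to the annotated gene start and the 11451 WAT genes the first listed one, while the 32851 hold every listed promoter. The 74 members also include Ndufaf8, which was tested in striatum alone. Of 10 matched members that rose in WAT at 24 h, 4 held the NRF1 letters, 2 the ETS letters and 1 the ERR letters. The sequences printed are those of the 5 of these 10 with a match, from GRCm38.p6, 5′ to 3′ on the gene's strand, with the matched letters (on either strand) in capitals. Ndufaf4 (chr4:24897833-24898132, + strand) has NRF1 letters 113 bases before the start. Uqcrc1 (chr9:108936398-108936697, + strand) has them 5 and 30 bases after the start. Sdhd (chr9:50603800-50604099, − strand) has NRF1 letters 79 bases before, ETS letters 46 bases before and ERR letters 36 bases after the start. Ndufa8 (chr2:36049289-36049588, − strand) has NRF1 letters 30 bases before and Ndufs8 (chr19:3912725-3913024, − strand) ETS letters 15 bases after. These matches are a description of letters and not of bound sites.
Ndufaf4: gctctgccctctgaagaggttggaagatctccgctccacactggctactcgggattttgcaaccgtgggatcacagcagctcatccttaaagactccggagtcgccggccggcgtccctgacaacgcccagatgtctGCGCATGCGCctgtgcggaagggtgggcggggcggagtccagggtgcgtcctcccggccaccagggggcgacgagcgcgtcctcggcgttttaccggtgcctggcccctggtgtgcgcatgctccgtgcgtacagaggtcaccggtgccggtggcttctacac
Uqcrc1: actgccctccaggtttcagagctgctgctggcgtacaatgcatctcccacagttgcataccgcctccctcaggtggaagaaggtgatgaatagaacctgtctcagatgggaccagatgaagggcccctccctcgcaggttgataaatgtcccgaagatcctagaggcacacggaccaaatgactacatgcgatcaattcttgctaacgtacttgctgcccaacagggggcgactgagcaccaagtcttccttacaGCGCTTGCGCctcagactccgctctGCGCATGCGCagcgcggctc
Sdhd: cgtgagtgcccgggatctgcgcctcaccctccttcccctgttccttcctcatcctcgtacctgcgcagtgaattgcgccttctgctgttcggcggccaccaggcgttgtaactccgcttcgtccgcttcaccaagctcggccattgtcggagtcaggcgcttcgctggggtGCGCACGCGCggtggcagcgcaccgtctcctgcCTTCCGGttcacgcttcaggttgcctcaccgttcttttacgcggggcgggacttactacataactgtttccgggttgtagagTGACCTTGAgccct
Ndufa8: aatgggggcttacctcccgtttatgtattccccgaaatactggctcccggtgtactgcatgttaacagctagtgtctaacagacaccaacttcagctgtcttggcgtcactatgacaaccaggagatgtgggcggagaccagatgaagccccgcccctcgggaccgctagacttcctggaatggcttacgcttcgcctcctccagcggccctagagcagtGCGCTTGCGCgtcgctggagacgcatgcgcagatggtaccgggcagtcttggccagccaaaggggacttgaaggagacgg
Ndufs8: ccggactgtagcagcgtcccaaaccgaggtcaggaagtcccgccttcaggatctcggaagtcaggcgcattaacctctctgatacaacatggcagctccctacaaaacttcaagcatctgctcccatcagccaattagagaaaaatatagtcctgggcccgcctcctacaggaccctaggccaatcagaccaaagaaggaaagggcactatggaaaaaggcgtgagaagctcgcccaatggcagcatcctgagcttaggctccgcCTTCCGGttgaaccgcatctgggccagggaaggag

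Few members had a muscle score slope that passed the test, although the median slope over members lay above 0. It was 0.027 log2 per unit of score, against −0.004 over all genes. Across WAT libraries the slope on the muscle score passed the test for 2 of 88 members and for 2.01% of all genes. The members were Cox6a2, with 0.89 ± 0.05 log2 per unit of score (edgeR, adjusted p = 4.84e-08), and Atp5g1, with 0.13 ± 0.03 (adjusted p = 0.0245). Cox6a2 followed the muscle genes in all 3 groups, at 1666, 19.2, 31.6 and 2550 counts in PTU, 68.2, 16.9, 317 and 36.1 at 6 h and 539, 1417, 213 and 341 at 24 h. Its difference at 24 h was −0.76 ± 1.19 log2 without the covariate and −0.42 with it (adjusted p = 0.690 and 0.227).

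With the muscle score in the fit, 11 of the 14 calls at 24 h against PTU stayed, where 6.78% of all genes were higher and 8.57% lower. Ndufaf6, Ndufa8 and Uqcrc2 no longer passed (adjusted p = 0.0667, 0.0519 and 0.0713). The median over all subunits went from 0.18 to 0.14 log2, that of complex I from 0.17 to 0.13 and that of complex III from 0.36 to 0.31, and 53 rather than 56 of 78 subunits lay above 0. Ndufaf4 differed by 1.11 log2 with the covariate. Without both muscle-rich controls, PTU replicates 1 and 4, 25 members were called (23 higher) in a fit without the muscle score. The controls left in that fit had muscle scores of −3.25 and −2.86, below every 24 h library (0.34 to 3.15). Muscle content and TH therefore cannot be told apart in it. Without 24 h replicate 3, 9 members were called.

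**Figure D3:**
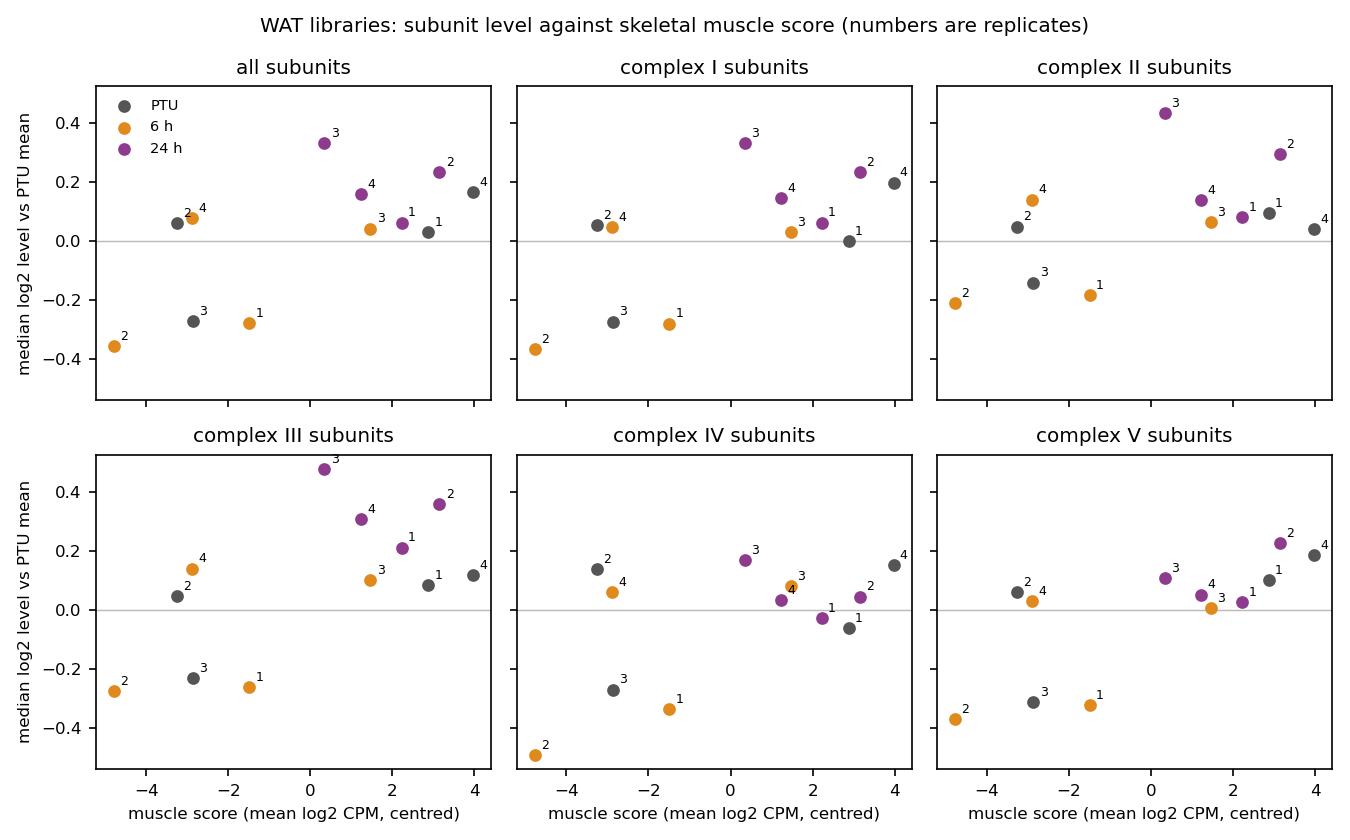
Median subunit level of each WAT library (log2, relative to the PTU mean) against its muscle score. The 24 h libraries lie between 0.06 and 0.33 at scores from 0.34 to 3.15, and the PTU libraries, at scores of −3.25, −2.86, 2.88 and 3.97, lie at 0.06, −0.27, 0.03 and 0.17.

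**Figure D4:**
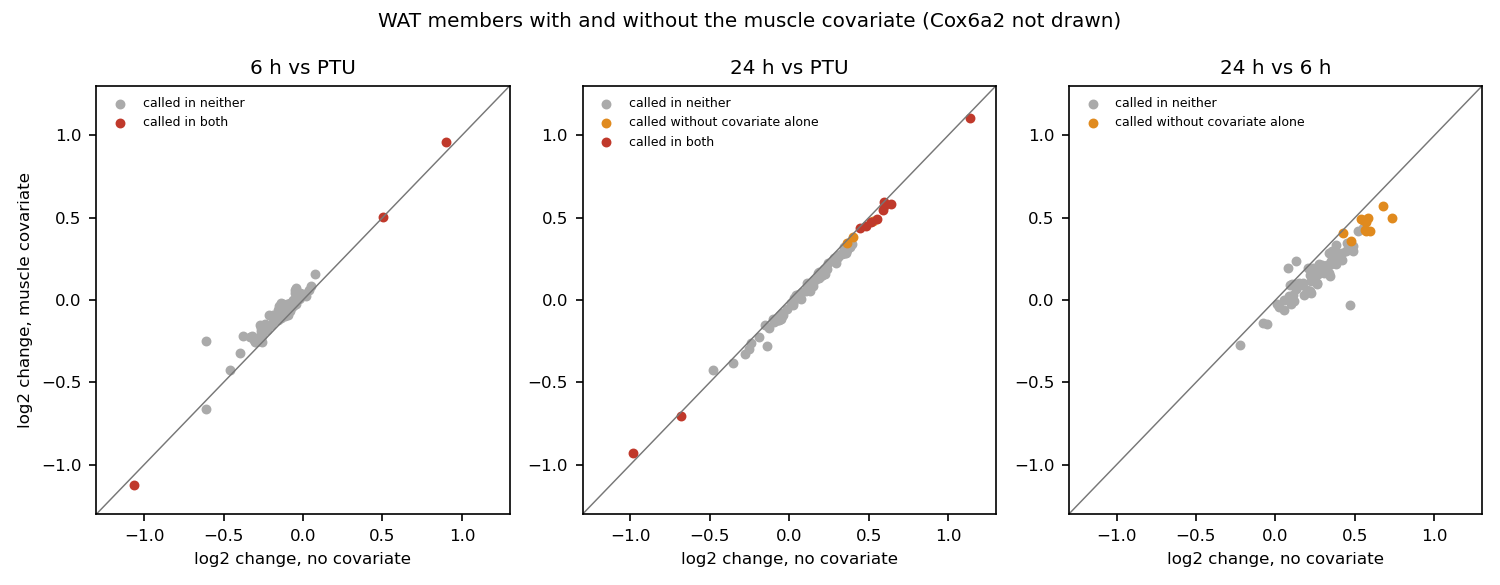
Log2 difference of each member in WAT except Cox6a2, without (x axis) and with (y axis) the muscle score in the fit. Most members lie near the diagonal for 24 h against PTU, and for 24 h against 6 h the median falls from 0.30 to 0.19.

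Other cell markers also moved between the WAT groups, and their part in the member values was not tested. Summed brown adipocyte markers (9 of 10 above the filter) were 2805 to 4449 in PTU, 5961 to 11098 at 6 h and 9165 to 24437 at 24 h, with Ucp1 at 4.80 to 268, 1641 to 3941 and 2877 to 12352. The brown adipocyte list was mixed: of 9 tested, 3 were called higher and 1 lower at 6 h against PTU. At 24 h against PTU 5 were called higher and 1 lower. Lhx8 was lower in every 24 h library than in any control. The list shares Ppargc1a with the regulators followed below, and it holds Cox7a1 and Cox8b, complex IV genes left out of the members. Cox8b stood at 831 to 1456 in PTU and at 2150 to 3865 at 24 h. Cox7a1 stood at 44.3 to 359 in PTU and at 445 to 768 at 24 h. White adipocyte markers summed to 537713 to 703381 in PTU, 507549 to 653237 at 6 h and 392621 to 492624 at 24 h. These sums were lower at 24 h than in any control. Stratified epithelium markers summed to 270 to 611 in PTU, 165 to 3159 at 6 h and 65.3 to 126 at 24 h, with 3 of 6 tested called lower at 24 h against PTU and 4 of 6 against 6 h. Leukocyte markers were 2803 to 5064, 3414 to 6526 and 4865 to 6157, and 0 of 6 were called.

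Between 6 h and 24 h in WAT, 11 members were called higher and 0 lower, 12.5% against 3.07% of all genes higher and 4.35% lower. The median over subunits was 0.30 log2, with 76 of 78 above 0, beside 0.01 over all genes, and groups did not overlap for 36.4% of members against 21.8% of all genes. Called were the complex I subunits Ndufa12, Ndufs8, Ndufa5, Ndufs4, Ndufb10 and Ndufa8 (0.54 to 0.60 log2), the assembly factor Ndufaf5 (0.74, adjusted p = 0.0428), Sdhd (0.43), Uqcrc1 (0.55), Cox5a (0.68, adjusted p = 0.0201) and Atp5f1 (0.48, adjusted p = 0.0429), all by edgeR. Of these, 8 were also called against PTU, a comparison that shares the 24 h libraries.

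None of the 11 passed once the muscle score was in the fit: edgeR called 0 of 88 members, 14 had an unadjusted p under 0.05, the adjusted p of the 11 ran from 0.0691 to 0.259, and 0.826% of all genes were called higher and 1.76% lower. Their differences stayed above 0, at 0.36 (Atp5f1) to 0.57 log2 (Cox5a) with the covariate against 0.43 to 0.74 without it, for example 0.49 ± 0.14 against 0.55 for Uqcrc1 and 0.41 ± 0.13 against 0.43 for Sdhd. Muscle scores ran from −4.77 to 1.47 at 6 h and from 0.34 to 3.15 at 24 h. Single libraries also weighed on it: 6 h replicate 2 was the lowest of 12 libraries for 50 of 78 subunits, and 1 member was called without 6 h replicate 1, 1 without 6 h replicate 2, 2 to 6 without any 1 of the 24 h libraries and 7 without PTU replicate 2.

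The remaining genes of the pathway were followed from a list of 73 regulators, electron carriers and further assembly factors, of which 65 were tested in WAT. At 6 h 10 of 65 were higher and 0 lower, where 4.18% of all genes were higher and 3.05% lower, and at 24 h 20 were higher, against 7.45%, and 1 lower, against 9.62% (Atpaf1, an ATP synthase assembly factor, −0.30, adjusted p = 0.0485). Ppargc1a, the coactivator PGC-1α of mitochondrial biogenesis, stood at 61.5, 68.2, 90.2 and 77.5 in PTU, 583, 602, 687 and 689 at 6 h and 281, 504, 370 and 393 at 24 h. It was higher by 3.10 ± 0.18 log2 at 6 h and by 2.38 ± 0.18 at 24 h (edgeR, adjusted p = 1.24e-06 and 8.87e-06), and lower at 24 h than at 6 h by −0.73 (adjusted p = 0.0199).

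Its relative Ppargc1b was higher by 0.95 and 0.93 log2 at 6 h and 24 h, the related Pprc1 by 0.61 and 0.75, the nuclear receptor Esrra by 0.63 and 0.54 and the mitochondrial RNA polymerase Polrmt by 0.48 and 0.54. Nrf1, Gabpa and Tfam did not pass at either time. Of 11 tested electron carriers and subunits outside the symbol rule, 2 rose at 24 h and 0 fell: Cyc1, the cytochrome c1 of complex III that the symbol rule leaves out, by 0.53 (adjusted p = 0.00838) and Cycs, cytochrome c, by 0.58 (adjusted p = 0.0203). At 24 h the complex IV assembly genes Sco2 (0.93, adjusted p = 0.000851) and Cox10 (0.85), the complex I assembly gene Ecsit (0.80, adjusted p = 0.0013) and the ATP synthase assembly gene Atpaf2 (0.69) were also higher, and Atpaf2 and Coa7 were already so at 6 h (0.51 and 0.75, adjusted p = 0.0098 and 0.00366).

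In striatum 1 member passed at 12 h after TH and none at 24 h. Members called were 1.09% higher (1 of 92) and 0 lower at 12 h, against 0.733% and 0.227% of all genes, and 0 of 92 at 24 h, against 0.316% of all genes higher and 0.0316% lower. Subunits lay on both sides of the controls, with a median of −0.00 log2 at 12 h (40 of 82 above 0) and 0.02 at 24 h (50 of 82). By complex the medians at 12 h were −0.02, 0.02, 0.08, −0.14 and 0.05 for I to V. At 24 h complex III had 7 of 8 subunits above 0 with a median of 0.13.

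Atp5o, the oligomycin-sensitivity subunit of the ATP synthase stalk, stood at 431 and 396 in PTU, 623, 626, 561 and 541 at 12 h and 481, 472, 468 and 503 at 24 h. All 4 libraries of 12 h lay above the rest, with a difference of 0.51 ± 0.09 log2 against PTU (edgeR, n = 4 and 2, adjusted p = 0.0378). The call held in only 2 of 10 fits that left out 1 library, and without PTU replicate 3 or 6 the adjusted p was 0.295 and 0.259. With Xist-defined library type as a covariate it was 0.0645, while 6 members were called at 12 h without TH 24 h replicate 2 and 7 by DESeq2. Neuron markers moved with the 12 h group and their part in these values was not tested: the 9 striatal projection neuron markers summed to 37938 and 55012 in PTU against 21722 to 35321 at 12 h, and the 7 cortical excitatory neuron markers to 4234 and 8002 against 10089 to 15740, without overlap in either list, although no single marker passed. Atp5o (chr16:91925214-91931687, − strand) overlaps D430001F17Rik and Gm15976 on the opposite strand, whose reads cannot be told apart from its own here. Another annotated entry with the symbol Atp5o (chr16:91684398-91926982, − strand) overlaps both this gene and Donson on the same strand. Which of the entries named Atp5o was counted is not stated.

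Further striatal members did not pass. Cox5a stood at 1196 and 1208 in PTU, 1834, 1704, 1474 and 1575 at 12 h and 1424, 1364, 1554 and 1352 at 24 h, without overlap between PTU and either TH group (0.45 log2 at 12 h, adjusted p = 0.0698). Ndufs6, a complex I subunit, stood at 160 and 107 in PTU and at 74.6 to 99.7 at 12 h (−0.63, adjusted p = 0.101). At 24 h the core subunits Ndufs1, Sdha, Uqcrc1, Cox4i1 and Atp5b differed from PTU by −0.01, −0.07, 0.20, −0.08 and 0.14 log2 (lowest adjusted p of these 0.563, for Uqcrc1), and the hypoxia-linked Cox4i2 and Ndufa4l2 by −0.42 and −0.37 (adjusted p = 0.725 and 0.698). Groups did not overlap for 39.1% of members at 12 h and 16.3% at 24 h, against 36.4% and 18.2% of all genes with 2 control libraries.

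**Figure D5:**
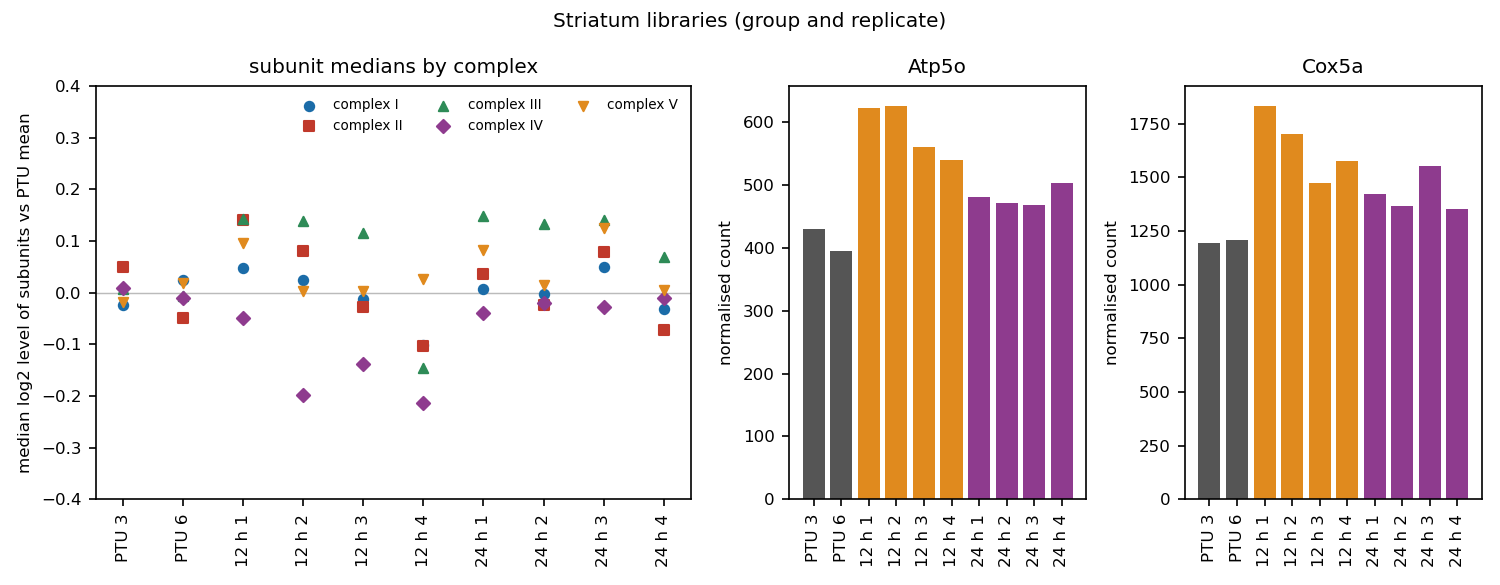
Striatal normalised counts of Atp5o and Cox5a by library, and the median subunit level of each complex by library. Atp5o is at 541 to 626 in the 12 h libraries and at 396 and 431 in PTU, and complex IV medians lie from −0.21 to −0.05 log2 in the 12 h libraries and from −0.04 to −0.01 at 24 h, against the PTU mean.

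The striatal counts of 0 rest on estimates of moderate precision. At 24 h 3 of 92 members had an unadjusted p under 0.05 by edgeR (3.26%, against 9.63% of all genes), and DESeq2 called 0. The 95% interval of the 24 h difference lay within 1 log2 unit of 0 for 89 of 92 members. Between 12 h and 24 h, 0 of 92 members were called, against 0% of all genes, 20 had an unadjusted p under 0.05 and DESeq2 called 4, and 14.1% of members had groups without overlap against 8.3% of all genes. Of the 73 further pathway genes, 0 of 68 tested in striatum passed in any comparison. These sets are not fully apart: Atp5mpl was counted both here and among the striatal members. Dmac2, counted here in striatum, is a member in WAT under the symbol Atp5sl. In striatum Dmac2 stood at 213 and 249 in PTU and at 290 to 329 at 12 h, without overlap and without passing. Its 24 h libraries overlapped those of PTU. Because the symbols differ, this gene was not among the members compared between tissues, and its calls in WAT were not tested against striatum.

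The tissues were compared at 24 h against PTU in 1 fit of 22 libraries over 12766 genes, of which 87 were members. The difference was called for 1 member, Ndufaf4, which was more positive in WAT by 1.05 ± 0.22 log2 (edgeR, adjusted p = 0.00716), where 2.2% of the genes tested had a higher WAT difference and 2.7% a lower one. In striatum Ndufaf4 stood at 346 and 384 in PTU and at 445, 377, 487 and 312 at 24 h, a difference of 0.15 with a 95% interval of −0.15 to 0.45. Next came Ndufa6 (0.66, adjusted p = 0.0660) and Ndufb10 (0.66, adjusted p = 0.0885), which did not pass. Without striatal PTU replicate 6, Ndufaf4 had an adjusted p of 0.0656, and tissue, RNA extraction and treatment in the diet cannot be told apart here.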

How the data were processed

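Total RNA was sequenced on a NextSeq 500 (SENSE total RNA kit), and per the paper's methods and the submitters' notes the authors aligned reads with Bowtie2 2.2.6.2 to mm10, removed alignments with a quality below 10 and counted reads per gene with htseq-count. The deposited values are raw counts per gene, 1 table per tissue, and the counting strand and annotation are not given in the sources used here. Reads with several equal positions appear to be treated differently in the tables: 235 pairs of WAT rows agreed within 2%, against 0 in striatum. None of these pairs held a member, but this cannot show whether member counts were touched. Uqcrb was the highest complex III subunit per kilobase in WAT (5219) and the lowest in striatum (64.8). In striatum the pseudogene Ndufa11b was the highest complex I entry (1435). Whether read treatment lies behind these levels was not tested. Rows turned into dates (14 in striatum, 15 in WAT) took at most 0.201% of a library and were left out.

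Each tissue was fitted on its own with 3 groups and no covariate in edgeR 4.0.16 (R 4.3.3): TMM scaling, a mean normalised count above 10, quasi-likelihood F tests and Benjamini-Hochberg adjustment over all genes tested, with calls at an adjusted p under 0.05 and no fold threshold. Normalised counts are counts scaled from each library's effective size to the mean effective size of its tissue. SEs come from the log2 difference and its F value, and 95% intervals are 1.96 SEs on each side and cover the spread between libraries. DESeq2 1.42.0, other scaling, no filter, covariates and left-out libraries were alternatives. The script was tested on simulated data. Labelled replicate numbers did not pair the libraries.

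Members and lists were chosen with earlier results of these data known. Members named in the text were, for each complex and comparison, the called members with the largest changes, fixed core subunits and isoform pairs. Further called members, and uncalled ones near the threshold, were named after their values were seen.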

Additional observations from a re-analysis of the deposited data

Results flagged for a closer look

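In each group of 4 libraries the highest and lowest value was compared with the others by Dixon's ratio. This was done for the complex sums and for a subset of members. The subset held the fixed core subunits, the isoform pairs, Cox6b2 and the members called in any comparison. Of 213 groups checked, 11 (5.16%) had a library standing apart, and chance gives about 1 in 20. Of these 4 were in striatal TH 12 h replicate 4, which had Atp5g2 at 30.9 normalised counts (the others 22.5 to 22.7), Cox4i1 at 3033 (3467 to 3494), Cox7a2 at 983 (1125 to 1144) and Ndufv1 at 330 (375 to 379). This library was also the lowest of 10 for 33 of 82 subunits. Striatal Uqcrc1 was at 850 in TH 12 h replicate 1 (740 to 747), Cox6b2 at 7.85 in TH 24 h replicate 2 (26.2 to 29.3), the library with few striatal neuron markers, and Ndufa8 at 636 in TH 24 h replicate 1 (682 to 686).

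In WAT, Cox6b2 was at 39.4 in PTU replicate 1 (23.9 to 25.8), Cox7a2l at 1960 in TH 6 h replicate 2 (2132 to 2158) and Ndufaf4 at 1072 in TH 24 h replicate 3 (888 to 920). Summed complex V subunits were at 81535 in PTU replicate 3 (98273 to 101452).

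The 24 h difference of Ndufaf4 from PTU was larger in WAT than in striatum by 1.05 log2 in the test of the difference between tissues.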

How the results depend on the processing

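The 0 calls in striatum at 24 h stayed 0 in every alternative run. Members called changed most. By DESeq2 they were 7 in striatum at 12 h, 4 between 12 h and 24 h, 26 in WAT between 6 h and 24 h and 2 for the difference between tissues. In fits of the 2 groups alone they were 8 in striatum at 12 h and 18 in WAT between 6 h and 24 h. With the muscle covariate 0 were called in WAT between 6 h and 24 h. Without both muscle-rich PTU libraries, an alternative chosen after seeing the data, 25 were called in WAT at 24 h, the median of complex V was 0.29 and Cox6a2 turned from −0.76 to 4.60 log2 (adjusted p = 0.0294). The cause of these changes was not tested.

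With the sex-linked covariate (Xist-defined type) 0 members were called in striatum at 12 h and the complex IV median was −0.070. Between 12 h and 24 h the medians were −0.032 for complex I, 0.058 for IV, −0.040 for V and −0.016 for all subunits. Leaving out the cortical library as well, chosen after seeing the data, gave 8 calls and a complex IV median of −0.075 at 12 h, and between the times −0.040 for complex I, −0.079 for II, −0.046 for IV, −0.046 for V and −0.037 for all. With no filter the complex IV median in striatum was −0.21 at 12 h and 0.016 between the times.

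Libraries with the same replicate number showed no shared deviation in every pair: correlations of deviations between same-numbered libraries ran from −0.38 to 0.25 over 6 striatal pairs and from −0.46 to 0.37 over 12 WAT pairs. With the replicate block 0 members were called in striatum at 12 h and 0 for the difference between tissues, and 4 in WAT between 6 h and 24 h. With the block and the muscle covariate 8 were called in WAT at 24 h and 0 between 6 h and 24 h. Striatal medians with the replicate block at 12 h were 0.035 for complex I, −0.089 for II, −0.0053 for IV, 0.11 for V and 0.052 for all, and at 24 h −0.043 for II, 0.057 for IV, 0.11 for V and 0.061 for all.

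Leaving out 1 library at a time gave 0 to 6 calls in striatum at 12 h, 9 to 17 in WAT at 24 h, 1 to 15 in WAT between 6 h and 24 h and 0 to 3 for the difference between tissues (0 without striatal PTU replicate 6, 3 without WAT PTU replicate 1). The median over all WAT subunits ran from −0.23 to −0.045 at 6 h, 0.10 to 0.24 at 24 h and 0.21 to 0.37 between the times. At 6 h the medians of complexes II and III reached 0.025 and 0.021 without 6 h replicate 1, and at 24 h those of IV and V reached −0.077 and −0.018 without PTU replicate 3. Striatal medians ran at 12 h from −0.072 to 0.038 for complex I, −0.21 to −0.0099 for IV, −0.032 to 0.086 for V and −0.032 to 0.052 for all. At 24 h they ran from −0.043 to 0.033 for I, −0.039 to 0.086 for II and −0.024 to 0.060 for V. Between the times they ran from −0.039 to 0.055 for I, 0.066 to 0.15 for IV and −0.020 to 0.052 for all. Among single genes 146 calls were lost, 18 gained and 1 reversed over all alternatives. Depth was similar within a tissue, and 2 striatal controls limit both striatal comparisons with PTU.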

Other observations

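The 13 protein-coding genes of mitochondrial DNA, a list chosen with the data known, were compared in the same fits. In WAT at 24 h against PTU 0 of 13 were called higher by edgeR, where 7.45% of all genes were, and 2 lower, where 9.62% were: mt-Nd3 (−0.57 log2, adjusted p = 0.0416) and mt-Nd6 (−0.91, adjusted p = 0.0267), both complex I subunits, while mt-Co1 differed by −0.20 and mt-Cytb by −0.12 (adjusted p = 0.286 and 0.569). At 6 h none passed, with mt-Nd3 at −0.45 (adjusted p = 0.136). Of 7 tested in striatum none passed, and mt-Nd5 differed by 0.41 and mt-Cytb by 0.34 log2 between 12 h and 24 h (adjusted p = 0.183 and 0.228).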
